A study of Oryza sativa with 16 samples.

Results

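The genotype by salt interaction was examined in rice seedlings, that is, for each gene, whether h4.v KO differed from WT to the same extent with and without salt in the medium. All 8 seedling libraries of the series were taken, out of 16 libraries in all, with 2 in each of 4 groups. The plants were Pusa Basmati 1, an indica cultivar of rice, and the labels give an age of 20 days for every seedling library. The groups were WT without added salt, h4.v KO without added salt, WT grown on medium with 120 mM NaCl (WT salt), and h4.v KO grown on the same salt medium (h4.v KO salt). The salt was in the medium throughout growth, so that each salted group was germinated and raised in it. H4.V was mutated with Cas9 in the h4.v KO line, and the seedling libraries came from 1 of the mutation types that were made. The remaining 8 libraries are leaves of WT plants and of lines that over-express H4.V (OE-H4.V), H4 (OE-H4) or H4.Vs (OE-H4.Vs), a fusion of the variant N-terminal part with the C-terminal part of H4. They entered only the last comparison.

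Histone H4 is a core subunit of the nucleosome, the unit around which DNA is wound, and its tail is a target of acetylation linked with active transcription. H4.V is a variant of H4 found in the rice genus, and the series asked how its loss alters transcripts in normal growth and under salt. Sodium chloride in the medium lowers the water available to roots and brings sodium into the tissue, and rice seedlings are known to respond through abscisic acid, jasmonate and large families of transcription factors. An interaction term reads as a difference of differences. It is positive where h4.v KO stood higher relative to WT with salt than without salt, and negative where it stood lower. The same number can arise from a change in any of the 4 groups, so each gene was also sorted by the group whose level differed from the other 3.

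The deposited values are FPKM (fragment counts divided by transcript length and by the mapped fragments of the library) for annotated genes and assembled loci of each library. They were matched by position to 30384 spans of the IRGSP1.0 genome, of which 27588 are annotated genes with an identifier. The rest are assembled loci without one, whose coordinates recurred in every library of the series. They were taken as annotated from this recurrence alone. Both kinds are called genes below. Of these genes, 13935 averaged 1 FPKM or more across the 8 seedling libraries and were tested as log2(FPKM + 1), and all differences below are on this scale, which understates the change of weakly expressed genes. Depth is known only relative to the first WT library, and was 1 and 1.20 in WT, 0.924 and 0.954 in h4.v KO, 0.736 and 0.848 in WT salt and 1.06 and 0.884 in h4.v KO salt. The median absolute difference between the 2 libraries of a group was 0.12 in WT, 0.13 in h4.v KO and 0.14 in both salted groups. The h4.v KO salt replicate 2 stood apart in 1 respect, since 6.04% of its listed FPKM lay in short features that were not used here, against 0.0460% to 0.105% in the other 7 seedling libraries. The counts below were therefore also taken without that library, as without each of the others. The tables name none of the genes and pair no identifier with a product, so functions, gene families and markers of shoot or root were not analysed here, and genes are given by identifier and position only. In whole seedlings, fewer cells of a type and less RNA per cell cannot be told apart.

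The targeted gene was looked at first. H4.V was matched by position to Os05g0462900, on chromosome 5 from 22743760 to 22744188. Its matched value was 0 FPKM in all 8 seedling libraries, WT included, so its level does not check the genotype labels of the seedlings. A 0 can also stand for a locus that was not assembled or not assigned to the gene. The paper amplified H4.V from cDNA of seedling RNA and reports its transcript in most tissues tested. The 0 in WT is therefore no evidence that the transcript is lacking. Among the leaf libraries the matched value of H4.V was 3369 and 3162 FPKM in OE-H4.V and 0 in the other 6.

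The effect of genotype differed between the 2 growth conditions for 946 genes, which is 6.79% of the 13935 tested, with an absolute interaction over 1.5 and a p-value under 0.05 from limma after Benjamini-Hochberg adjustment over all genes tested. Without the adjustment 1033 genes passed (7.41%), and with an absolute interaction over 1 and the adjustment 13.6% of genes did. Of these, 581 had a positive interaction (4.17% of genes tested) and 365 a negative one (2.62%). The interactions ran from 6.92 to -6.62, and their median absolute size was 2.06 with a median standard error of 0.21. It was over 2 in 509 genes, over 3 in 142, over 4 in 54 and over 5 in 10. The split of directions moved with the scaling of the libraries: positive calls made up 61.4% with FPKM as deposited and 73.6% (717 positive and 257 negative) after median-of-ratios scaling, which shifted the median interaction over all genes tested from -0.15 to 0.02. Leaving out h4.v KO salt replicate 2 gave 976 called genes, of which 828 were among the 946.

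WT without salt was the group that most often stood apart. For each called gene, the group was found whose removal left the smallest range among the other 3 group means. The gene was counted as clean where that range was under 1 and the group lay more than 1 from the nearest of the others, and otherwise as mixed. Of the 946 genes, 538 were clean and 408 mixed. Among the clean genes, WT stood apart in 411 (76.4%), h4.v KO in 85 (15.8%), and each of the 2 salted groups in 21 (3.9%). With the mixed genes included, the group apart was WT in 644, h4.v KO in 213, h4.v KO salt in 54 and WT salt in 35. In 933 of the 946 genes, both libraries of the group apart lay above or below all 6 other libraries. The calls and the group apart come from these same values, and the share over all genes tested was not taken. The count is therefore no measure of agreement between libraries. This sorting uses the same values as the calls and is a description, with no test. The labels name no growth day or batch, so whatever else the 2 libraries of a group shared cannot be told apart from their genotype and medium.

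**Figure D1:**
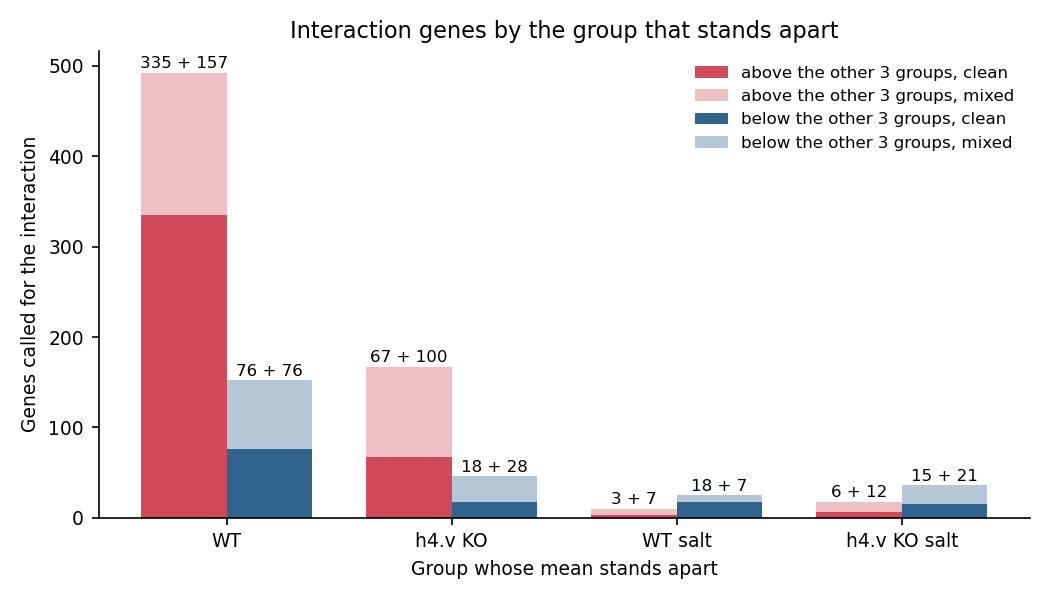
Number of interaction genes (y axis) by the group whose mean stands apart (x axis), above or below the other 3 groups. Solid bars are clean genes and pale bars mixed genes, and the figures over the bars give clean plus mixed. WT above the others is the tallest pair, with 335 clean and 157 mixed genes.

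The larger class was of transcripts abundant in WT without salt and low in the other 3 groups, with 335 clean genes on all 12 chromosomes. Their median level was 27.4 and 29.9 FPKM in the 2 WT libraries. It was 4.03 and 4.08 FPKM in h4.v KO, 4.30 and 4.14 FPKM in WT salt, and 3.97 and 4.23 FPKM in h4.v KO salt. The sorting itself requires the means of these 3 groups to lie within 1 of each other, so their closeness is no finding. The median range among them was 0.44, and in Os04g0301500, described next, it was 0.96. The WT level reached at least 10 FPKM in 262 of the 335 genes and at least 100 FPKM in 55, and the highest WT mean was 928 FPKM. In 61 of them no other group had a mean of 1 FPKM or more. Those 61 genes could pass the filter on the mean only through their level in WT. The interaction was over 2 in 201 of these genes, over 3 in 55 and over 4 in 22.

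The interaction was strongest of all genes at Os04g0301500, on chromosome 4 from 13466455 to 13468869. It had 258 and 295 FPKM in the WT libraries, 1.44 and 1.28 FPKM in h4.v KO, 0.112 and 0.317 FPKM in WT salt, and 0.424 and 0.0912 FPKM in h4.v KO salt. The 2 genes named for each side of a group apart were chosen among clean genes whose libraries in that group do not overlap with the others. Their separation from the other libraries is therefore set by the choice and is no finding. The interaction of Os04g0301500 was 6.92 (SE 0.24, adjusted p = 8.64e-05, limma). The genotype difference, h4.v KO minus WT, was -6.87 without salt (adjusted p = 1.08e-05, limma) and 0.04 with salt (adjusted p = 0.92, limma). Os03g0183500, on chromosome 3 from 4379668 to 4380736, had 75.5 and 60.4 FPKM in WT and was listed at 0 in both h4.v KO and both WT salt libraries. In h4.v KO salt it had 0.613 FPKM in replicate 1 and 0 in replicate 2. Its interaction was 6.44 (SE 0.34, adjusted p = 0.000195, limma).

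The opposite pattern, a transcript low in WT without salt and higher in the other 3 groups, was seen in 76 clean genes, also on all 12 chromosomes. Their median was 2.12 and 1.98 FPKM in the WT libraries, 9.51 and 10.04 FPKM in h4.v KO, 9.51 and 9.42 FPKM in WT salt, and 8.12 and 7.71 FPKM in h4.v KO salt. As in every clean class, the likeness of the other 3 groups is set by the sorting. In 24 of the 76 genes the WT mean was under 1 FPKM. The interactions were smaller than in the class above, with 37 of 76 over 2 in absolute size, 5 over 3 and 1 over 4.

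Os12g0124500, on chromosome 12 from 1180372 to 1181071, had 0 FPKM in the 2 WT libraries. It had 19.5 and 21.5 FPKM in h4.v KO, 32.9 and 30.3 FPKM in WT salt, and 32.4 and 37.5 FPKM in h4.v KO salt. Among the 6 libraries with a value, those with salt had somewhat higher levels than h4.v KO without salt. Its interaction was -4.29 (SE 0.15, adjusted p = 8.64e-05, limma). Os07g0545300, on chromosome 7 from 21589820 to 21590917, was likewise at 0 in WT, with 16.3 and 11.6 FPKM in h4.v KO, 20.2 and 19.6 FPKM in WT salt, and 18.1 and 19.5 FPKM in h4.v KO salt. Its interaction was -3.97 (SE 0.22, adjusted p = 0.000214, limma). A value of 0 in these tables can be a locus that was not assembled in that library. Where a group is at 0, the size and standard error of the interaction depend on the pseudocount of 1 and give neither a fold change nor a bound, which holds for these genes and for the others listed at 0 in a group.

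**Figure D2:**
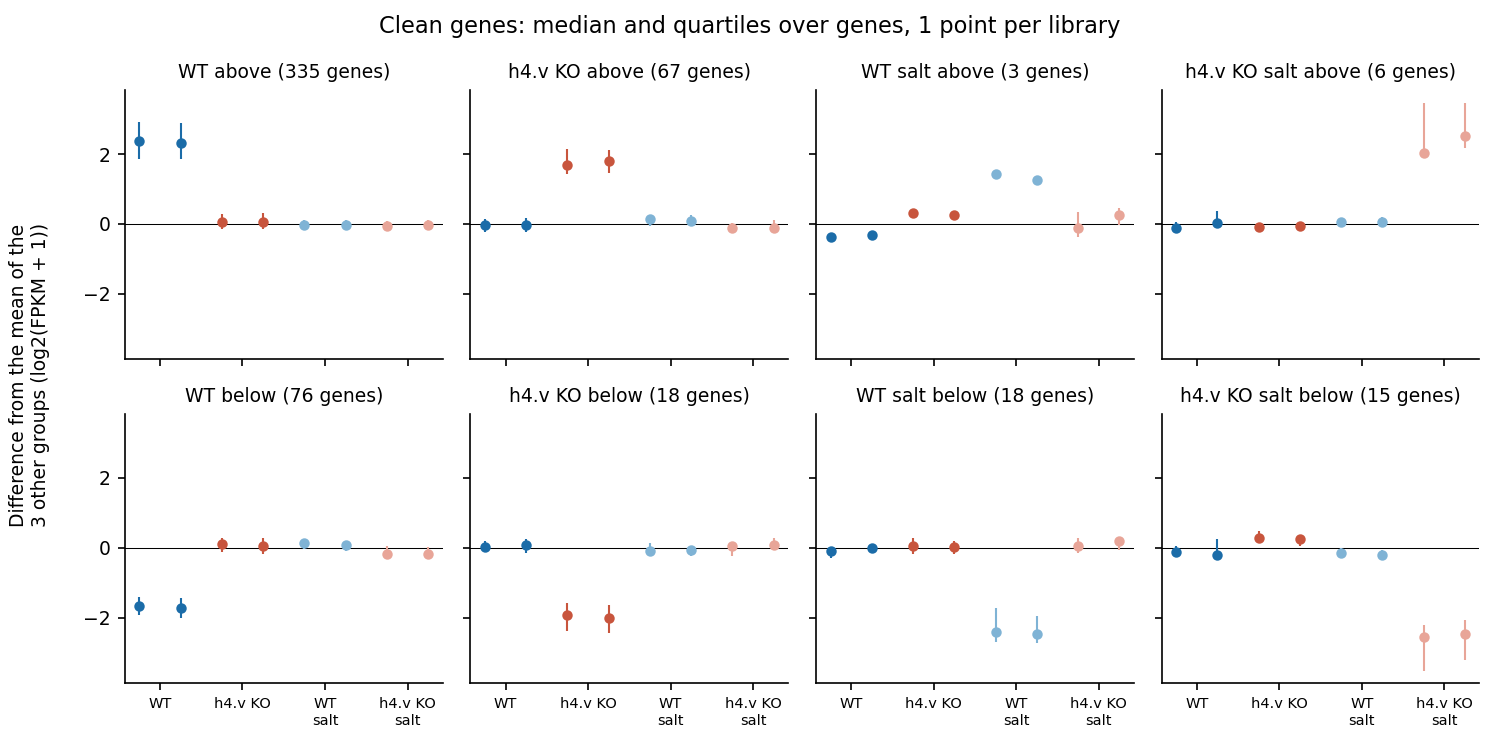
Median difference (points) and quartiles over genes (lines) of each of the 8 libraries from the mean of the 3 groups that do not stand apart, on the log2(FPKM + 1) scale, for the clean genes of each class. In the WT above class (335 genes) the 2 WT libraries lie at 2.36 and 2.33. In the h4.v KO salt above class (6 genes) the 2 h4.v KO salt libraries lie at 2.03 and 2.51. Genes were called and sorted on these same values, so agreement of the 2 libraries is no finding. The other 6 libraries lie closer to 0, since differences are taken from their own mean and the sorting limits the range of their group means. They lie farthest from 0 in the WT salt above class (3 genes), at -0.37 and -0.30 in WT and 0.32 and 0.27 in h4.v KO.

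The knockout seedlings grown without salt stood apart in 85 clean genes, 67 of them above and 18 below the other groups. In the 67 genes the median was 1.5 and 1.6 FPKM in the WT libraries, 8.13 and 7.73 FPKM in h4.v KO, 2.27 and 2.10 FPKM in WT salt, and 1.51 and 1.64 FPKM in h4.v KO salt. The sorting sets this contrast, so it is no finding. In 20 of the 67 genes no other group had a mean of 1 FPKM or more. Those 20 genes could pass the filter on the mean only through their level in h4.v KO. In the 18 genes the median was 9.99 and 9.33 FPKM in the WT libraries, 1.44 and 1.30 FPKM in h4.v KO, 10.7 and 9.34 FPKM in WT salt, and 8.95 and 11.5 FPKM in h4.v KO salt. In 8 of these 18 genes the h4.v KO mean was under 1 FPKM.

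The largest of these interactions, -5.32 (SE 0.19, adjusted p = 8.64e-05, limma), belonged to a span on chromosome 1 (36395486 to 36398031). This span has no identifier and is known only as an assembled locus that recurred in every library. It had 46.7 and 48.9 FPKM in h4.v KO and at most 0.704 FPKM in the other 6 libraries. Among genes with an identifier, Os02g0570700, on chromosome 2 from 21810375 to 21813457, had 14.0 and 5.69 FPKM in h4.v KO, with replicate 1 clearly the higher. The other libraries lay at 0.611 and 0.606 FPKM (WT), 0.633 and 0.737 FPKM (WT salt) and 0.0548 and 0.132 FPKM (h4.v KO salt). The interaction of Os02g0570700 was -3.26 (SE 0.50, adjusted p = 0.00629, limma). Os07g0631700, on chromosome 7 from 26208537 to 26209455, had 6.07 and 6.42 FPKM in the WT libraries, 48.4 and 47.4 FPKM in h4.v KO, 6.13 and 6.27 FPKM in WT salt, and 4.48 and 4.26 FPKM in h4.v KO salt. The difference with salt was -0.01 in WT (adjusted p = 0.94, limma) and -3.19 in h4.v KO (adjusted p = 6.98e-06, limma). The interaction was -3.18 (SE 0.12, adjusted p = 8.64e-05, limma).

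Among the genes lowest in h4.v KO, Os07g0115500, on chromosome 7 from 848966 to 849761, had 30.5 and 39.6 FPKM in the WT libraries, 1.43 and 1.34 FPKM in h4.v KO, 17.4 and 18.3 FPKM in WT salt, and 27.9 and 30.3 FPKM in h4.v KO salt. The transcript was nearly lacking in unsalted knockout seedlings and stood in salted ones at a level close to that of unsalted WT. Its interaction was 4.58 (SE 0.19, adjusted p = 0.000114, limma). Os09g0439200, on chromosome 9 from 16273522 to 16275268, had 24.1 and 24.6 FPKM in the WT libraries, 1.89 and 2.84 FPKM in h4.v KO, 15.9 and 18.2 FPKM in WT salt, and 22.8 and 21.0 FPKM in h4.v KO salt. It followed the same order of groups, with an interaction of 3.28 (SE 0.22, adjusted p = 0.00034, limma).

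The groups grown on salt stood apart in few genes, and mostly as the lower group. In h4.v KO salt, 15 of 21 clean genes lay below the other groups and 6 above. In WT salt, 18 of 21 lay below and 3 above. These counts depended on the libraries used. The clean h4.v KO salt genes numbered 61 without h4.v KO salt replicate 1, 47 without h4.v KO salt replicate 2, 40 without WT salt replicate 1 and 44 without WT salt replicate 2. The clean WT salt genes numbered 33 without h4.v KO salt replicate 1, 55 without WT salt replicate 1 and 53 without WT salt replicate 2. In these fits a group with a lone library is assumed to vary like the others.

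The 15 genes below in h4.v KO salt lay on 9 chromosomes and had a median of 10.3 and 10.8 FPKM in the WT libraries, 12.2 and 14.6 FPKM in h4.v KO, 9.07 and 8.56 FPKM in WT salt, and 0.344 and 0.641 FPKM in h4.v KO salt. In 10 of the 15 genes the h4.v KO salt mean was under 1 FPKM. Os08g0288050, on chromosome 8 from 11437989 to 11440989, had 23.0 and 24.3 FPKM in the WT libraries, 38.5 and 33.6 FPKM in h4.v KO, 28.4 and 25.9 FPKM in WT salt, and 0.344 and 0.382 FPKM in h4.v KO salt. Its interaction was -4.95 (SE 0.15, adjusted p = 5.96e-05, limma). Os01g0150000, on chromosome 1 from 2707624 to 2711422, had 77.7 and 75.6 FPKM in the WT libraries, 92.7 and 84.6 FPKM in h4.v KO, 68.6 and 66.4 FPKM in WT salt, and 1.55 and 2.59 FPKM in h4.v KO salt. Its interaction was -4.70 (SE 0.23, adjusted p = 0.000184, limma).

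The 6 genes above in h4.v KO salt lay on 5 chromosomes, and in 5 of them every other group had a mean under 1 FPKM. Those 5 genes could pass the filter on the mean only through their level in h4.v KO salt. Os01g0150900 lies on chromosome 1 from 2752144 to 2761554, 40721 bp past the end of Os01g0150000, with 5 genes between them, 2 of which were tested. It had 17.7 and 16.2 FPKM in h4.v KO salt, 0.208 FPKM in WT replicate 1, and was listed at 0 in the other 5 libraries. These 2 genes were chosen from opposite sides of h4.v KO salt, so their opposite values in its libraries are set by the choice. Whether their nearness plays a part was not tested. The interaction of Os01g0150900 was 4.30 (SE 0.20, adjusted p = 0.000167, limma). Os02g0276200, on chromosome 2 from 10135285 to 10143931, had 15.9 and 14.2 FPKM in h4.v KO salt and at most 0.498 FPKM elsewhere, and an interaction of 3.58 (SE 0.25, adjusted p = 0.000389, limma).

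In WT salt, the 18 genes below the other groups lay on 10 chromosomes and had a median of 6.15 and 5.45 FPKM in the WT libraries, 7.63 and 7.47 FPKM in h4.v KO, 0.355 and 0.215 FPKM in WT salt, and 6.01 and 6.78 FPKM in h4.v KO salt. In 14 of the 18 genes the WT salt mean was under 1 FPKM. Os08g0378900, on chromosome 8 from 17818457 to 17820510, had 17.9 and 24.3 FPKM in the WT libraries, 37.6 and 23.8 FPKM in h4.v KO, 0.581 and 0.717 FPKM in WT salt, and 21.0 and 22.6 FPKM in h4.v KO salt. Its interaction was 3.29 (SE 0.34, adjusted p = 0.00139, limma). Os02g0765400, on chromosome 2 from 32243175 to 32245008, had 4.80 and 0.167 FPKM in WT salt, which differ widely, and between 24.7 and 37.3 FPKM in the other 6 libraries. Its interaction was 3.76 (SE 0.97, adjusted p = 0.0362, limma), and the call was lost without any 1 of the 4 h4.v KO or h4.v KO salt libraries or of the 2 WT libraries (adjusted p from 0.0719 to 0.102, limma).

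The 3 genes above in WT salt were weakly expressed. In 2 of them no other group had a mean of 1 FPKM or more. Those 2 genes could pass the filter on the mean only through their level in WT salt. Os10g0481500, on chromosome 10 from 18169120 to 18172321, had 3.55 and 3.49 FPKM in WT salt and at most 1.63 FPKM elsewhere, where h4.v KO salt gave 0.0718 and 1.63 FPKM. Os10g0171500, on chromosome 10 from 4929261 to 4931157, had 2.92 and 2.42 FPKM in WT salt and at most 1.53 FPKM elsewhere, where h4.v KO salt gave 1.53 and 0.155 FPKM. For both genes the libraries of h4.v KO salt lay far from each other. The interactions were -2.06 (SE 0.55, adjusted p = 0.0399, limma) and -1.87 (SE 0.51, adjusted p = 0.0422, limma). The call of Os10g0481500 was lost without any 1 of the 8 libraries other than h4.v KO salt replicate 2, with interactions from -1.41 (without h4.v KO salt replicate 1) to -2.09. That of Os10g0171500 was lost without either WT, either h4.v KO, or the second h4.v KO salt library, with interactions from -1.30 (without h4.v KO salt replicate 2) to -2.01. Without either WT salt library, where its values were highest, the mean of Os10g0171500 fell below the filter of 1 FPKM. It was then not tested, so whether its call holds without them is not known. The remaining gene, Os06g0165900, named after its values were seen, had 7.07 and 6.53 FPKM in WT salt, 1.48 and 1.70 FPKM in the WT libraries, 2.497 and 3.23 FPKM in h4.v KO, and 1.94 and 2.82 FPKM in h4.v KO salt, with an interaction of -1.79 (SE 0.24, adjusted p = 0.00395, limma).

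**Figure D3:**
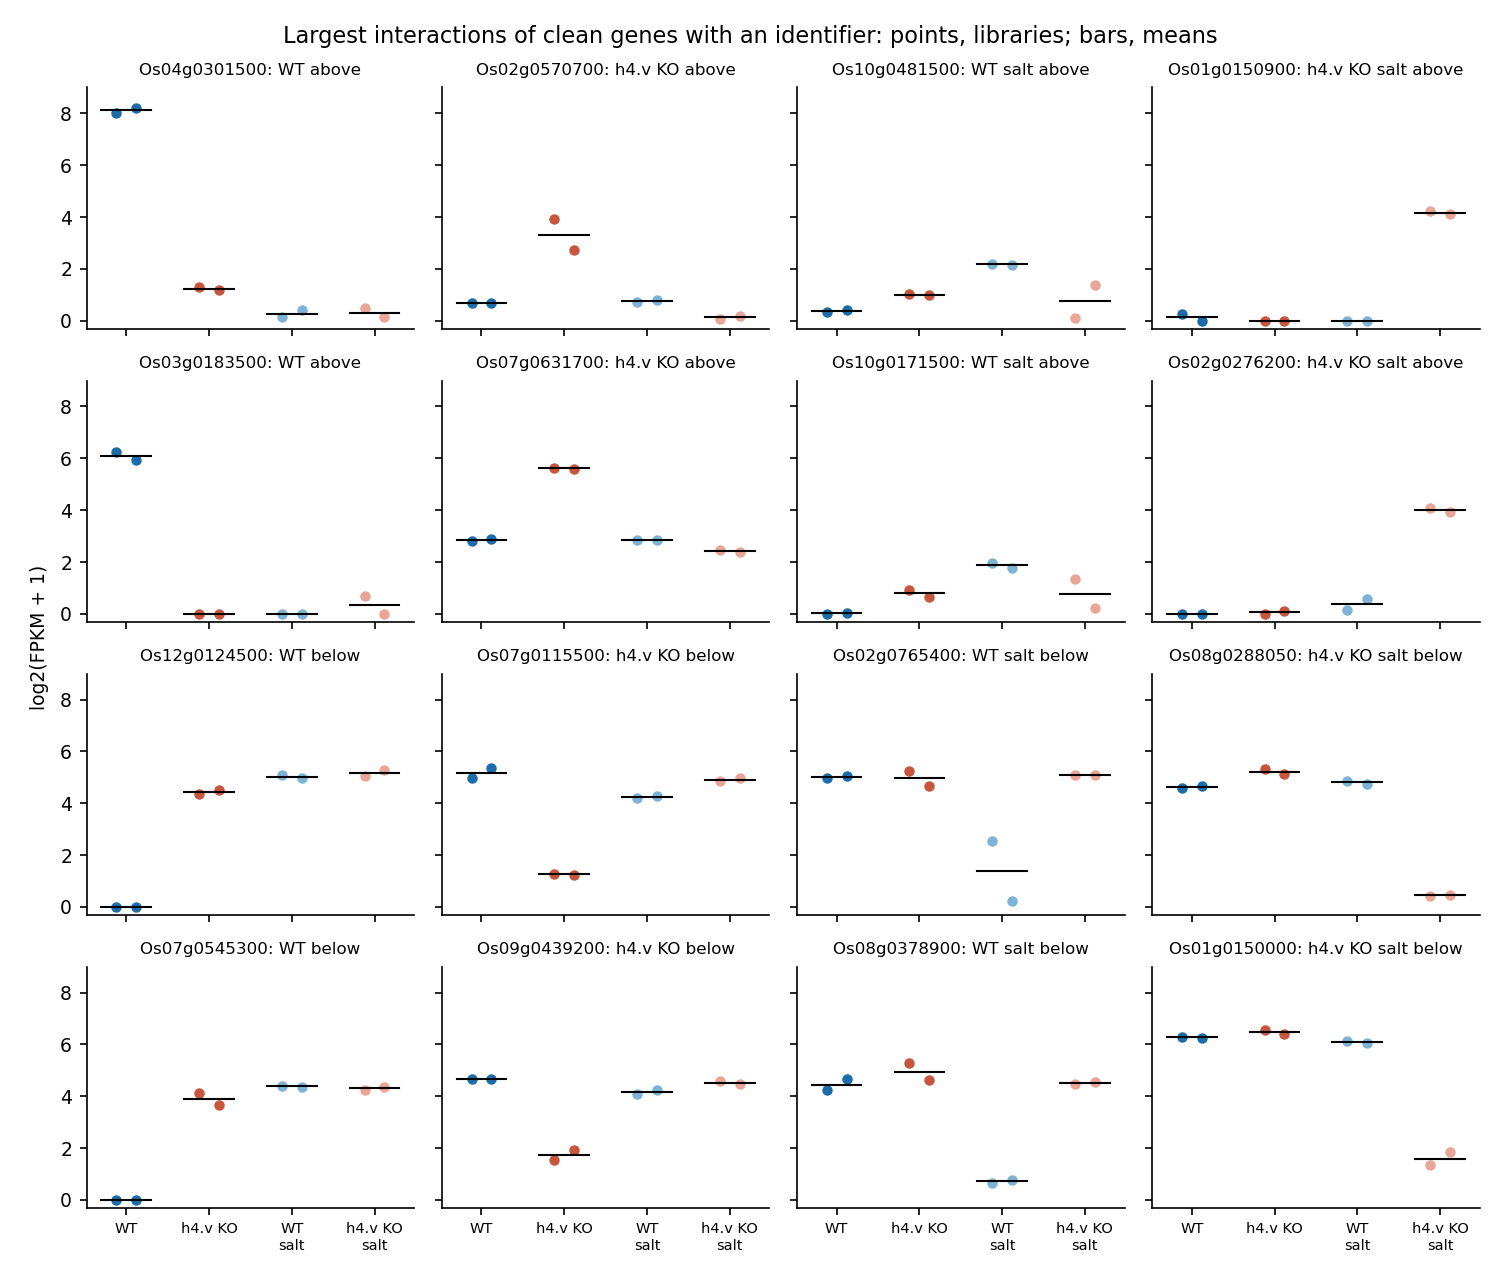
Level of the 16 genes with the largest interactions among clean genes that have an identifier, 2 per group that stands apart and side, as log2(FPKM + 1) on the y axis for each group on the x axis. Points are the 2 libraries of a group and bars their mean. In each panel the group named in its title lies above or below the other 3, which the choice of genes requires. The libraries of a group lie widest apart for Os02g0765400 in WT salt.

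Mixed genes combined differences in more than 1 group, and their 4 group means were put in order. This order defines each set below, so which group is the higher within a set is no finding. In 100 of the 408 mixed genes, h4.v KO was highest, followed by WT salt, h4.v KO salt and WT. The median group means of these 100 genes were 2.33 in WT, 3.89 in h4.v KO, 3.38 in WT salt and 2.99 in h4.v KO salt, in log2(FPKM + 1), so that the knockout and the salt each came with a higher level and their combination with an intermediate level. In 68 genes both unsalted groups lay above both salted ones and WT above h4.v KO in each pair, with median group means of 6.18 in WT, 3.52 in h4.v KO, 1.54 in WT salt and 1.27 in h4.v KO salt. In 51 genes WT was again highest and h4.v KO second, but WT salt was lowest, with 6.17 in WT, 3.96 in h4.v KO, 1.64 in WT salt and 2.22 in h4.v KO salt. The order that defines both of these sets places WT salt below h4.v KO, so the deeper loss with salt is set by the grouping. A further 40 genes ran from WT at 4.27 over h4.v KO salt at 3.42 and WT salt at 3.18 down to h4.v KO at 2.31, so that salted knockout seedlings stood higher than unsalted ones.

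The h4.v KO against WT differences of the 946 genes lay mostly in the seedlings without salt. Both differences are parts of the interaction term, so the counts are a description and nothing is read from them about the term. Over all genes tested, h4.v KO differed from WT in 5.79% without salt and in 0.452% with salt. Of the 946 interaction genes, 657 differed without salt only, where h4.v KO was the higher in 173 and the lower in 484, and 41 differed with salt only, with 24 higher and 17 lower. Another 244 passed in neither condition, 1 in both conditions in the same direction and 3 in both in opposite directions. The median difference of the 581 genes with a positive interaction was -2.10 without salt and 0.01 with salt. That of the 365 genes with a negative interaction was 1.48 without salt and -0.40 with salt. The scatter of the 946 genes accordingly follows the horizontal axis.

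**Figure D4:**
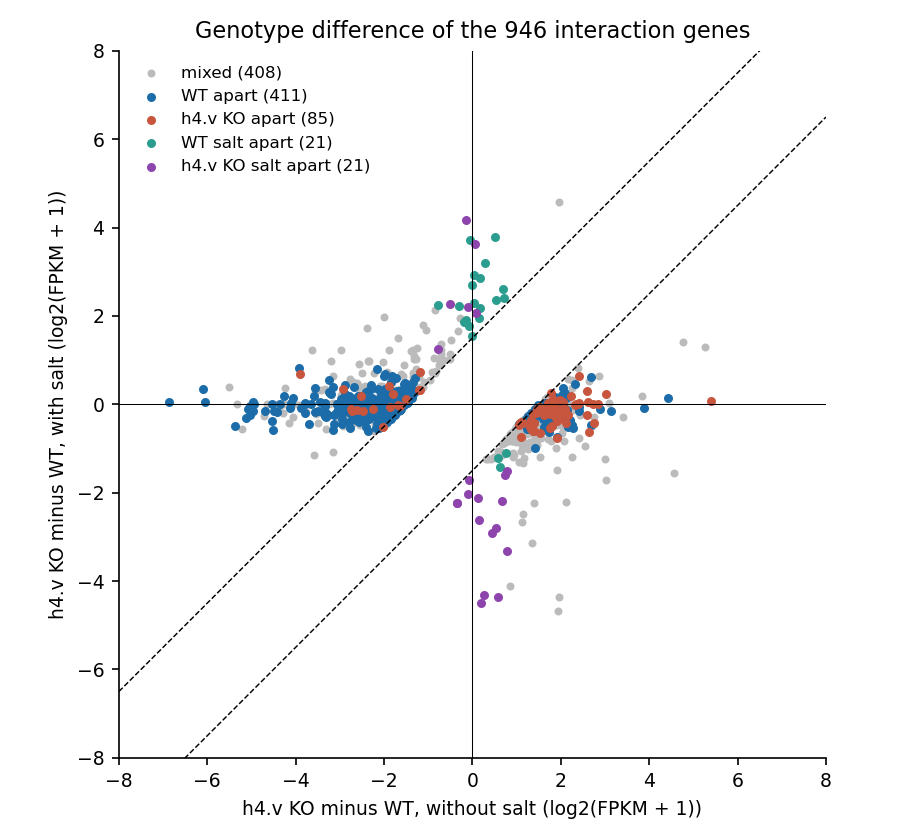
h4.v KO minus WT without salt (x axis) and with salt (y axis) for the 946 interaction genes, on the log2(FPKM + 1) scale, coloured by the group that stands apart. The dashed lines mark an interaction of 1.5 in either direction. The 411 genes with WT apart and the 85 with h4.v KO apart lie along the horizontal axis, and the 42 genes with a salted group apart lie along the vertical axis. The sorting sets these positions, since it keeps the other 3 means within 1 of each other.

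The same genes were read across salt within each genotype. These salt differences are also parts of the interaction term. The counts and medians of the called genes are therefore a description, and nothing is read from them about the term. Salt changed 11.4% of all genes tested in WT and 8.42% in h4.v KO. Of the 946 genes, 460 differed with salt in WT only, of which 385 were lower and 75 higher in WT salt. In h4.v KO only there were 149, of which 110 were lower and 39 higher in h4.v KO salt. A further 90 differed in both genotypes in the same direction, 78 of them lower with salt, and 7 in opposite directions. The median salt difference of the 581 genes with a positive interaction was -2.46 in WT and -0.08 in h4.v KO, and most of these genes had WT without salt as the group apart.

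The 4 genes in which the genotype difference passed in both conditions were named after their values were seen. Os12g0555200, on chromosome 12 from 22591681 to 22593505, had 42.8 and 43.8 FPKM in the WT libraries, 159 and 180 FPKM in h4.v KO, 36.4 and 33.2 FPKM in WT salt, and 0.461 and 0.331 FPKM in h4.v KO salt. It was the highest in unsalted knockout seedlings and nearly absent from salted ones, and its interaction of -6.62 (SE 0.14, adjusted p = 3.10e-05, limma) was the lowest of all genes. Os01g0907600, on chromosome 1 from 39501378 to 39502910, had 81.1 and 78.8 FPKM in the WT libraries, 19.1 and 19.6 FPKM in h4.v KO, 10.9 and 10.1 FPKM in WT salt, and 42.6 and 46.4 FPKM in h4.v KO salt. Here the knockout was the lower genotype without salt and the higher with salt, and the interaction was 3.97 (SE 0.11, adjusted p = 5.96e-05, limma). Os05g0554601, on chromosome 5 from 27579146 to 27579822, was at 0 in both WT libraries, with 3.63 and 3.09 FPKM in h4.v KO, 4.48 and 3.73 FPKM in WT salt, and 0 and 0.229 FPKM in h4.v KO salt. Its interaction was -4.32 (SE 0.23, adjusted p = 0.000194, limma), with a transcript present under either condition and at or near 0 under neither or both. Os03g0629800, on chromosome 3 from 24046131 to 24047194, was the higher in h4.v KO in both conditions, with 8.02 and 8.33 FPKM in the WT libraries, 35.03 and 34.8 FPKM in h4.v KO, 21.7 and 24.4 FPKM in h4.v KO salt and 0 in both WT salt libraries. Its interaction was 2.62 (SE 0.13, adjusted p = 0.000184, limma).

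Several of the 946 genes were listed at 0 in whole groups. Both libraries of WT, and of no other group, were at 0 for 19 genes, those of h4.v KO for 14, those of WT salt for 16 and those of h4.v KO salt for 11. Listed only in WT, with all 6 other libraries at 0, were 10 genes, and only in h4.v KO 3 genes. None of the 946 genes was listed in only WT salt or only h4.v KO salt. Genes listed only in WT or only in h4.v KO could pass the filter on the mean only through their level in that group. The share of genes at 0 in whole groups was not taken over all genes tested. These counts are therefore a description and set the called genes apart from no others.

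Short genes were called more often than long ones. The genes tested were divided into 5 bins of nearly equal gene number by the length of the annotated span. The share called was 13.8% in the shortest bin (224 to 1733 bp), then 7.75%, 5.13% and 4.41%, and 2.8% in the longest bin (5375 to 34844 bp), against 6.79% over all genes tested. The median span of the called genes was 2139 bp against 3361 bp for all tested. Their median level was slightly lower, at 2.96 against 3.24 in log2(FPKM + 1). The part of span length and of level in the interaction calls was not tested. Among the clean classes, the median span was 2879 bp for the 335 genes above in WT, 1308 bp for the 76 below in WT, and 4301 bp for the 15 below in h4.v KO salt.

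**Figure D5:**
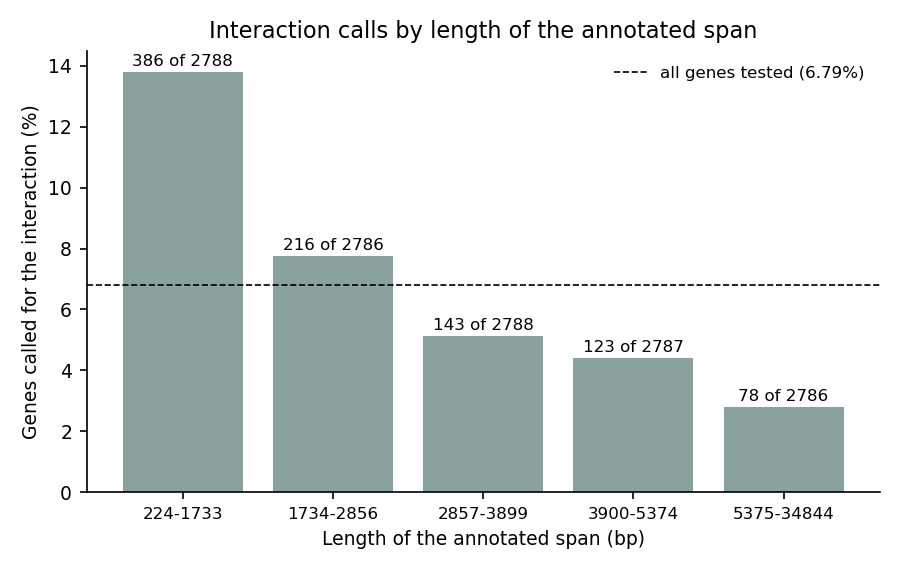
Share of genes called for the interaction (y axis, percent) in 5 bins of the genes tested by length of the annotated span (x axis, bp). The dashed line is the share over all genes tested, 6.79%. The share falls from 13.8% in the shortest bin to 2.8% in the longest.

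The leaf libraries of the OE lines were not used to choose the interaction genes and gave a separate reading of them. Of the 946 genes, 524 were also tested in leaves. By the same call, 17 of the 524 differed from WT leaves in OE-H4.V (3.24%, against 3.1% of the 11292 leaf genes tested), and in OE-H4.Vs leaves 25 (4.77%, against 3.52%). In OE-H4 leaves 72 differed, 30 higher and 42 lower, which is 13.7% against 6.72% of all leaf genes tested. The 3 comparisons share the WT leaf libraries and are given side by side. Leaf libraries were uneven, with 71.02% and 86.73% of FPKM in assigned loci in WT and 85.22% and 76.12% in OE-H4. The shares were not matched for span length, and short genes were called for the interaction more often than long ones. The counts depended on the libraries, as did the share of all leaf genes called in the same fit. Without WT leaf replicate 1, 11 interaction genes differed in OE-H4.V (2.11% against 2.35% of all), 38 in OE-H4 (7.29% against 4.48%) and 8 in OE-H4.Vs (1.54% against 2.28%). Without WT leaf replicate 2, 14 differed in OE-H4.Vs (2.65% against 2.53%). Without OE-H4 replicate 1, 45 differed in OE-H4 (8.64% against 4.91%), and without OE-H4.Vs replicate 2, 49 differed in OE-H4.Vs (9.39% against 5.06%). Of the 335 genes above in unsalted WT seedlings, 182 were tested in leaves, and 3 differed in OE-H4.V (all lower), 13 in OE-H4 (8 higher and 5 lower) and 4 in OE-H4.Vs. Their median difference from WT leaves was 0.12 in OE-H4.V, 0.33 in OE-H4 and 0.24 in OE-H4.Vs, beside 0.04, 0.18 and 0.09 over all leaf genes tested.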

How the data were processed

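Poly(A) RNA of biological duplicates was made into directional libraries and sequenced in paired-end format on an Illumina HiSeq. The authors ran Trimmomatic, HISAT2 against IRGSP1.0 (a japonica reference, whereas the plants are indica) and Cufflinks 2.2.1 on each library, per the submitters' processing notes and the paper. The deposited FPKM tables are scaled to mapped fragments by the authors and hold no counts. The labels give an age of 20 days for seedlings, and the paper's methods give a younger age.

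Spans were those with an identifier, or assembled loci with the same coordinates in every library, of 200 bp or more on the 12 chromosomes. Loci were assigned to them with bedtools 2.31.1, where at least 50% of a locus lay in the gene and the locus covered no second gene by 50% or more. Genes without an identifier numbered 1550 of those tested in seedlings and 71 of those called for the interaction. Gene FPKM is the sum of locus FPKM weighted by the share of the gene overlapped. In seedlings 6023 genes with ambiguous loci were left out, and assigned loci held 85.99% to 89.25% of the FPKM of identified and assembled loci. Values were tested as log2(FPKM + 1), with a pseudocount of 1 and a mean of at least 1 FPKM, with limma 3.58.1 in R 4.3.3 (eBayes with a trend), with 4 group means and the 8 libraries of a tissue in the fit. Calls needed an adjusted p under 0.05 and an absolute value over 1.5, the fold of the paper's methods. Relative depth came from the widths of Cufflinks' intervals over genes with at least 5 fragments. In a test on simulated data, 181 of 200 genes changed by 3 and 4 unchanged genes were called among 13935. Values were drawn around 1 mean per gene with the spread that limma estimated. These counts therefore do not cover groups at 0 or interactions smaller than 3.

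Named genes are the 2 with the largest absolute interaction on each side of each group apart, among clean genes that have an identifier and whose libraries in that group do not overlap with the others. The rule for genes with a product description, the pathway lists and the cell type markers of the plan could not be applied, since the tables used here pair no identifier with a name. Members, lists and rules were chosen with earlier results of these data known. The alternatives tried were another pseudocount, filter, scaling, threshold, locus rule and sorting range, no trend, a replicate block and leaving out each library. Python 3.11.15, pandas 2.3.3, NumPy 2.4.6 and matplotlib 3.10.9 were used for the rest.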

Additional observations from a re-analysis of the deposited data

Results flagged for a closer look

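The test of the interaction itself flagged 946 genes, for which the effect of genotype differed between seedlings with and without salt. The same test flagged each of the 16 named genes. With WT apart these were Os04g0301500 (interaction 6.92), Os03g0183500 (6.44), Os12g0124500 (-4.29) and Os07g0545300 (-3.97). With h4.v KO apart they were Os02g0570700 (-3.26), Os07g0631700 (-3.18), Os07g0115500 (4.58) and Os09g0439200 (3.28). With h4.v KO salt apart they were Os01g0150900 (4.30), Os02g0276200 (3.58), Os08g0288050 (-4.95) and Os01g0150000 (-4.70). With WT salt apart they were Os10g0481500 (-2.06), Os10g0171500 (-1.87), Os02g0765400 (3.76) and Os08g0378900 (3.29).

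A signal outside the main measurement was seen in h4.v KO salt replicate 2, where a short annotated feature of 93 bp on chromosome 4, from 18749068 to 18749160, was listed at 31968 FPKM. In the other 15 libraries, WT and the other h4.v KO salt library included, it was listed at 0.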

How the results depend on the processing

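All 16 named genes kept the sign of their interaction under every alternative that could be fitted. Their calls were kept in 255 refits and lost in 26, and the lost calls were those of Os02g0765400, Os10g0171500 and Os10g0481500. With a mean of at least 5 FPKM, 233 genes had a negative interaction, and clean genes numbered 37 for h4.v KO, 7 for WT salt and 11 for h4.v KO salt. With an interaction over 1, 1898 genes were called, 974 positive and 924 negative, with 143 clean for h4.v KO. A sorting range of 0.5 left 226 clean genes for WT, 44 for h4.v KO, 8 for WT salt and 7 for h4.v KO salt, and a range of 1.5 gave 32 for h4.v KO salt. Without each library in turn, calls ran from 889 to 1027, positive ones from 526 to 610 and negative ones from 349 to 417. Clean genes then ran from 375 to 409 for WT, 76 to 111 for h4.v KO, 18 to 55 for WT salt and 18 to 61 for h4.v KO salt, and leaf counts from 11 to 21 in OE-H4.V, 38 to 79 in OE-H4 and 8 to 49 in OE-H4.Vs. The filter, the threshold and the sorting range change the number of genes that can pass, and the causes of the other shifts were not tested. The total was 1217 with a pseudocount of 0.1 (892 shared with the 946), 974 with median-of-ratios scaling (838 shared) and 744 where at least 80% of each locus lay inside its gene. Replicate numbers did not pair the samples, since deviations of libraries with the same number correlated between -0.01 and 0.02 over genes. A replicate block gave 940 genes (927 shared). With 2 libraries per group and no counts, the precision of weakly expressed genes is limited and could not be derived from depth.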

Other observations

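The interaction genes were spread over the 12 chromosomes, with a share called from 5.44% on chromosome 10 to 7.62% on chromosome 2. Of genes that follow a called gene in the order of genes tested, 9.85% were called, beside 6.79% over all genes tested. There were 93 neighbouring pairs of called genes, 66 of them with the same sign, and 123 called genes had a called neighbour of the same sign.

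Stretches of at least 3 neighbouring called genes of the same sign numbered 8. Those given here were picked once their values were known. The longest held 4 genes, from Os01g0699100 to Os01g0699600 on chromosome 1 (28921498 to 28948045), with interactions from 2.37 to 3.70, and WT stood apart in all 4. A stretch of 3 genes on chromosome 3 (4232004 to 4249820) had interactions from 3.26 to 4.85, and another on chromosome 8 (2129613 to 2138081) from 2.99 to 3.94, again with WT apart in each gene. In a stretch on chromosome 2 (21740304 to 21813457), which ends with Os02g0570700, h4.v KO stood apart in all 3 genes, with interactions from -3.26 to -1.89. Whether genes in a stretch share reads or a regulator was not tested.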
